A study of Rattus norvegicus with 20 samples.

Results

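In the dorsal root ganglia (DRGs) of rats, 1 miRNA of the 221 that could be tested (0.452%), miR-21, was higher 6 months after sciatic nerve denervation than after a sham operation. It gave a scaled signal of 970 after the sham operation and of 2300 to 2398 on the 3 denervation arrays, a 2.42-fold difference (95% interval 1.91 to 3.07). By the test across all miRNAs (limma, adjusted p under 0.05) 0 of 221, 0%, were lower, and 14 were lower at an unadjusted p under 0.05. By the rule of the study, a 2-fold difference, taken here on each of the 3 arrays, miR-144, miR-327 and miR-333, or 1.36%, were lower. miR-144 missed this rule after scaling to the median. After quantile normalization the sham and denervation signals of miR-333 fell to the lower limit set on signals, so that no difference could be measured. miR-333 could not be evaluated in the processed values.

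The comparison used 4 of the 20 arrays of the series, the 3 of DRGs after denervation and the 1 of DRGs after the sham operation, chosen by the labels of the scanner files. The animals were adult male Sprague-Dawley rats, and the DRGs were those of the sciatic nerve. In denervation the sciatic nerve was cut with loss of a stretch of it, and the tied end was buried in muscle so that the nerve could not grow back. The tissue was taken after 6 months. The labels give no time for the sham control. The other 6 DRG arrays, used here to estimate the spread and for 1 further comparison, were of nerves held in a silastic tube for 6 months (entrapment, 3 arrays) and of nerves freed from such a tube for 3 months after 6 months in it (decompression, 3 arrays). The scanner files and the processed table name these 2 groups the other way round. The scanner files were followed, and values given for entrapment or decompression alone could be exchanged. The Methods speak of 3 rats in each group. The labels list a single sham array, and whether 1 rat or several gave its RNA is stated in neither. The labels call the injury arrays experimental replicates without naming animals, so that the p-values measure the spread between these arrays, which may in part be technical.

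DRGs hold the cell bodies of the sensory neurons, whose axons run in the sciatic nerve, together with satellite glia, Schwann cells, vessels and resident immune cells. A miRNA is a short RNA that guides the silencing complex to messenger RNAs, mainly through pairing of its seed, bases 2 to 8, so that miRNAs with the same seed can share targets. miR-21 is known as a miRNA induced by injury, inflammation and cell growth in many tissues. miR-144 and miR-451 are made from 1 locus that is highly active in developing red blood cells.

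The mature sequences of the miRNAs on which the results turn are given 5′ to 3′ with the seed in capitals, from RefSeq (rat, build GRCr8). Shown are miR-21 with the other arm of its hairpin (miR-21*), those with a 2-fold difference and the neighbour of miR-144, miRNAs of injury with 2 pairs that share a seed, miR-338 of glia, and a pair of the let-7 family.
miR-21: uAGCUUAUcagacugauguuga
miR-21*: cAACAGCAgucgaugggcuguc
miR-144: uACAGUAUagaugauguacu
miR-451: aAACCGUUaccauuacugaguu
miR-327: cCUUGAGGggcaugagggu
miR-221: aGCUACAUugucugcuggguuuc
miR-222: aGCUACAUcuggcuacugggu
miR-146a: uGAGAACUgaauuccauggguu
miR-146b: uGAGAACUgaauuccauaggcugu
miR-338: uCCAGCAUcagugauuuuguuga
miR-34a: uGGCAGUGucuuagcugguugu
let-7b: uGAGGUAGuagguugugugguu
let-7e: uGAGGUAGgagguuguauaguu
Mature miR-21 lies at chr10:71902653-71902674 on the minus strand, in a hairpin 531 bases from the annotated end of Vmp1, a gene for a membrane protein of autophagy. Its seed, AGCUUAU, occurs in no other of the 693 mature rat miRNAs in that table. miR-144 (chr10:63459446-63459465) and miR-451 (chr10:63459585-63459606) lie on the plus strand in hairpins 89 bases apart and have different seeds. miR-222 (chrX:6022682-6022702) and miR-221 (chrX:6023246-6023268), in hairpins 458 bases apart, share the seed GCUACAU. miR-146a and miR-146b share the seed GAGAACU and lie on different chromosomes. miR-327 lies at chr20:13161137-13161155, miR-338 at chr10:105796345-105796367 and miR-34a at chr5:165815971-165815992. miR-124 and miR-333 are named only.

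Each array measured 350 rat miRNAs, and the value of a miRNA is its total gene signal, an intensity in arbitrary units, scaled so that the 75th percentile of all 350 was equal on every array. Detected were 235 miRNAs after the sham operation, and 227, 214 and 222 on denervation 1, 2 and 3, against 185 to 202 on the entrapment and decompression arrays. Before scaling, the 75th percentile was 97.7 on the sham array, 96.8 to 114.9 on the denervation arrays and 70.5 to 85.2 on the other 6. Of 45 control features on the array, which report on labelling and hybridization, 24 had the sham and denervation arrays on one side of the other 6 without overlap, so that a difference in handling cannot be told apart from one between those groups. For the comparison with sham, 25 of the 45 control features had the sham array outside the range of the denervation arrays. Any 1 of 4 like arrays often lies outside the range of the other 3, so that this count alone does not measure a difference. The 19 of the 45 that were brighter than 100 on the 4 arrays differed by -0.38 to 0.27 on the log2 scale, with a median of -0.08. A miRNA was tested where it was detected on 3 or more of the 10 DRG arrays, which held for 221, and signals under 2.07 were set to it. This floor is the middle value among the dimmest detected miRNAs of the 10 arrays, so that some detected signals lie under it. The sham control was 1 array, and its own spread was taken from the other groups.

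miR-21 rose after denervation. The sham array read 970, and 2398, 2300 and 2340 were measured on denervation 1, 2 and 3 (2346 ± 49.3, SD, n = 3). All denervation arrays lay above the sham array, and above each entrapment array (885 to 1168) and decompression array (982 to 1090). On the log2 scale the arrays differed from sham by 1.31, 1.25 and 1.27, a mean of 1.27 ± 0.03 (SD). The standard error from limma was 0.15 (adjusted p = 0.00555). It assumes that the sham control varies like the other groups, since the spread of 1 sham array could not be measured. It was the 1 miRNA of 221, or 0.452%, called higher by limma, and likewise the 1 of 221, or 0.452%, that was at least 2-fold higher on each array. The differences among the 3 denervation arrays were small against the difference from sham, 2.47-, 2.37- and 2.41-fold. The unscaled signals were 1082 on the sham array, where the scanner software gave an error of 7.32%, and 3146, 2542 and 2769 on the denervation arrays. miR-21*, the other arm of the hairpin, was not detected on any of the 10 DRG arrays. In bulk tissue, more RNA per cell and more cells of a type cannot be told apart, for miR-21 and for every miRNA below.

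**Figure D1:**
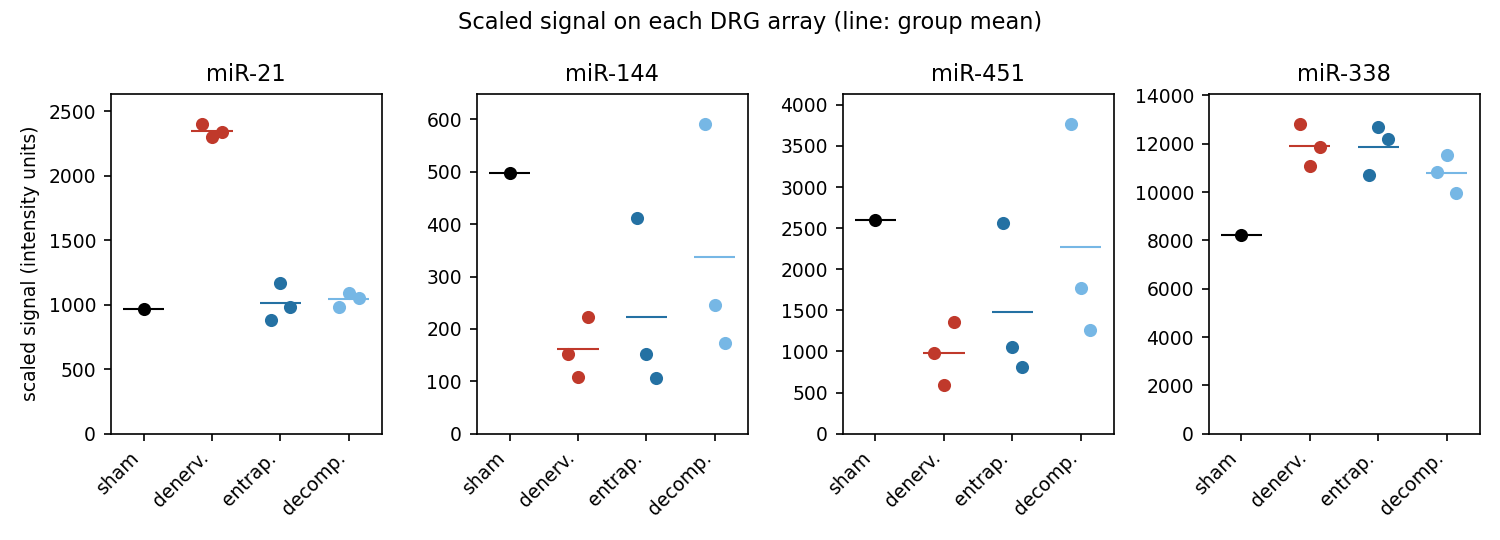
Scaled signal (intensity units, linear axes from 0) of miR-21, miR-144, miR-451 and miR-338 on the 10 DRG arrays. Points are arrays and lines are group means, with 1 sham array and 3 arrays in each injury group. The 3 denervation arrays of miR-21 lie at 2300 to 2398 and all other arrays at 885 to 1168, while those of miR-144 and miR-451 spread widely within every injury group.

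Among the tested miRNAs detected on all 4 arrays, miR-144 had the largest difference below sham. Its signal was 497 on the sham array and 152, 108 and 222 on denervation 1, 2 and 3. All 3 denervation arrays lay below sham, and they were spread widely among themselves. On the log2 scale the differences were -1.71, -2.20 and -1.16, a mean of -1.69 ± 0.52 (SD, n = 3) with an interval from limma of -3.62 to 0.25, and the adjusted p was 0.342. By the fold rule 3 of 221 miRNAs, 1.36%, were lower on each array, and limma called 0 of 221, 0%.

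miR-451, from the same locus as miR-144, was at 2603 on the sham array and at 979, 591 and 1363 on denervation 1, 2 and 3. The denervation arrays again lay below sham, in the same order as for miR-144, and the highest of them was less than 2-fold lower. The mean log2 difference was -1.49 ± 0.61 (SD, n = 3), with an interval of -3.27 to 0.28 and an adjusted p of 0.363. After entrapment miR-144 was at 411, 152 and 106 and miR-451 at 2558, 1060 and 807. After decompression miR-144 was at 590, 245 and 174 and miR-451 at 3762, 1778 and 1262. In each injury group both miRNAs thus had the same order of arrays, and the highest entrapment and decompression arrays of miR-144, at 411 and 590, lay near or above sham. With both members of the red blood cell list that were on the array summed, the signal was 3100 on the sham array and 699.5 to 1585 on the denervation arrays. These are miRNAs of red blood cells, and the part of blood left in the tissue in these values was not tested.

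The other miRNAs that passed the fold rule were dim. miR-327 was at 21.04 on the sham array and at 8.45, 8.36 and 8.24 on the denervation arrays, where it was detected on 2 of 3. The mean log2 difference was -1.33 ± 0.02 (SD, n = 3), with an interval of -2.73 to 0.07 and an adjusted p of 0.309. The denervation arrays lay close together and below sham, but on entrapment arrays miR-327 ranged from 3.88 to 13.3, and that spread enters the test. miR-333 was at 7.51 on the sham array and at 2.11, 2.07 and 2.37 on the denervation arrays, near the detection limit, with a mean log2 difference of -1.78 ± 0.10 (SD, n = 3) and an adjusted p of 0.0905. It was detected on 2 of these 3 arrays, with scanner errors of 70.2% to 126% of its signal. Fitted to the sham and denervation arrays alone, limma called both miR-327 and miR-333 lower (adjusted p = 0.00756 each).

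Most miRNAs stayed close to sham on every array. Of the 221 tested, 206 (93.2%) were within 2-fold of sham on each of the 3 denervation arrays, and 163 (73.8%) were within 0.5 on the log2 scale. The interval from limma lay wholly inside 2-fold for 173 (78.3%). The median log2 difference was -0.03, with 69 miRNAs (31.2%) higher and 83 (37.6%) lower on all 3 arrays. At an unadjusted p under 0.05, 20 were higher and 14 lower. The median SD of a miRNA over the denervation arrays was 0.10 on the log2 scale, and it was 0.15 over the entrapment and 0.12 over the decompression arrays. Brighter miRNAs were the more precise, with a median SD of 0.08 for the 123 with a sham signal of at least 50 and 0.15 for the 98 below it.

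The denervation arrays were alike, but denervation 2 stood further from sham than the others. It had 14 miRNAs at least 2-fold lower than sham, while denervation 1 had 5 and denervation 3 had 3, and each array had 1 at least 2-fold higher. Over the 221 miRNAs, which share arrays and do not count as replicates, Pearson's r was 0.992 to 0.997 among the denervation arrays and 0.980 to 0.990 between them and sham. No miRNA was detected on all 3 denervation arrays and not on sham. In the other direction 10 were detected after the sham operation but on none of the denervation arrays, and for these a fold is a bound on the group mean. It sets the sham signal against the mean log2 over the denervation arrays of the highest of the miRNA's own signal, the lowest detected signal on that array and 2.07. By it miR-18a was at least 2.59-fold lower and the other 9 at least 1.25- to 1.86-fold lower. All 10 were detected on too few arrays to be tested, so that they are not among the 221. A miRNA detected on the sham array alone could not pass that filter.

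**Figure D2:**
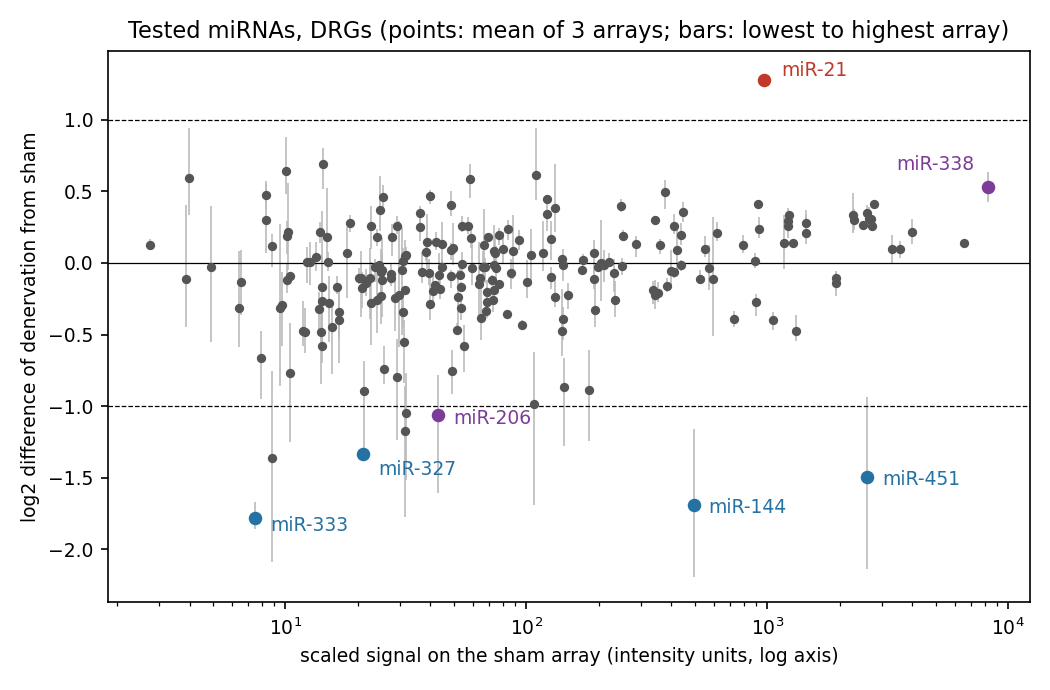
Mean log2 difference of the 3 denervation arrays from the sham array (vertical axis) against the scaled signal on the sham array (log axis, intensity units) for the 221 tested miRNAs. Bars run from the lowest to the highest array and dashed lines mark 2-fold. miR-21 alone lies above the upper line, and miR-144 and miR-451 lie below the lower one with long bars.

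The miRNAs that the study names for the DRGs of its injury groups, beside miR-21 and miR-144, were examined one by one. miR-9, a miRNA of neurons and their progenitors, was at 424 on the sham array and at 454, 398 and 507 on the denervation arrays. The sham value lay within the denervation range, with a log2 difference of 0.09 (interval -0.28 to 0.46, adjusted p = 0.840). miR-9*, its other arm, was at 284 on the sham array and at 317, 292 and 324 after denervation, a log2 difference of 0.13 (adjusted p = 0.695). The intervals of miR-9, of miR-9* and of miR-320 (0.07, interval -0.46 to 0.60) lay inside 2-fold, as did that of miR-324-3p (-0.26, interval -0.54 to 0.03). miR-324-5p, the other arm of miR-324-3p, differed by -0.07 (adjusted p = 0.850).

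miR-672 and miR-466b differed more from sham and varied more between arrays. miR-672 was at 143 on the sham array and at 90.3, 59.1 and 90.4 on the denervation arrays. All 3 lay below sham, denervation 2 the lowest, with a mean log2 difference of -0.87 ± 0.35 (SD, n = 3, adjusted p = 0.363). miR-466b was at 181 on the sham array and at 103, 76.5 and 119 on the denervation arrays, again with denervation 2 the lowest. Its mean log2 difference was -0.89 ± 0.33 (SD, n = 3), with an interval of -1.80 to 0.02 and an adjusted p of 0.309. Neither was called by limma or by the fold rule.

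In the list of miRNAs of injury and inflammation, 7 of the 8 members on the array were tested. miR-21 was called by both rules, and with the processing used here no other member was called by either. With rank-consistent loess and with quantile normalization limma also called miR-221 and miR-34a. It called miR-146b with quantile normalization, and miR-221 without the filter on detection. Of the 7 tested, 5 were higher than sham on all 3 arrays and 1 was lower, beside 31.2% and 37.6% of all miRNAs tested. Their median log2 difference was 0.46, beside -0.03 over all miRNAs tested. miR-221 and miR-222, neighbours with 1 seed that are known to act on the cell cycle inhibitor p27, gave similar values. miR-221 was at 39.8 on the sham array and at 56.6, 52.9 and 55.5 after denervation, a log2 difference of 0.47 ± 0.05 (SD, n = 3, interval 0.23 to 0.70, adjusted p = 0.0905). miR-222 was at 25.5 on the sham array and at 37.2, 34.8 and 33.4 after denervation, a difference of 0.46 ± 0.08 (interval -0.14 to 1.06, adjusted p = 0.404). For both, the denervation arrays lay close together and above sham, and the difference was smaller than 2-fold on each.

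miR-146a and miR-146b, which share a seed and are known to restrain Toll-like receptor signalling, were also above sham on each denervation array. miR-146b was at 58.5 on the sham array and at 80.1, 94.5 and 88.7 after denervation, a log2 difference of 0.58 ± 0.12 (SD, n = 3, adjusted p = 0.242). For miR-146a the difference was 0.39 (adjusted p = 0.501). miR-34a, known to be induced by p53, was the 1 member below sham on all arrays, at 1317 on the sham array and at 900, 1021 and 918 after denervation. Its log2 difference was -0.48 ± 0.10 (SD, n = 3, interval -0.79 to -0.17, adjusted p = 0.150). miR-31 differed by 0.22 and changed sign between arrays. miR-155 was not analysed here.

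The list of neuronal miRNAs had 17 members on the array, of which 13 were tested and none was called. Of these 13, 7 were lower on all 3 arrays and 2 higher, beside 37.6% and 31.2% of all miRNAs tested. The median log2 difference was -0.27, and it was -0.06 with median scaling and -0.13 with quantile normalization. miR-124, the most specific of neurons in the list, was at 728 on the sham array and at 577, 551 and 535 after denervation. Its 3 denervation arrays lay close together below sham, with a log2 difference of -0.40 ± 0.05 (SD, n = 3, interval -0.65 to -0.14, adjusted p = 0.150). miR-128, known to act on neuronal excitability, differed by -0.44 ± 0.04 (adjusted p = 0.150), and miR-138, found in neuronal dendrites, by -0.40 (adjusted p = 0.168). miR-7a differed by -0.47 (adjusted p = 0.285) and miR-137 by -0.27 (adjusted p = 0.363). miR-218 (0.02), miR-212 (0.07) and miR-384-5p (0.10) lay near 0. In all, 6 of the 13 had a mean above sham, the highest at 0.30. After quantile normalization limma called miR-384-3p of this list. miR-124 and the sensory neuron cluster, markers of the labelled tissue, were detected on all 4 arrays.

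That cluster, miR-183, miR-96 and miR-182, is made from 1 transcript in sensory neurons and other sensory cells. All 3 members were lower than sham on each denervation array, beside 37.6% of all miRNAs tested, and none was called. Their median was -0.19 and became 0.03 with median scaling. miR-183 was at 335 on the sham array and at 274, 302 and 307 after denervation, a log2 difference of -0.19 (interval -0.44 to 0.06, adjusted p = 0.419). miR-96 differed by -0.14 and miR-182 by -0.21, and the interval of each lay inside 2-fold.

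Of 5 miRNAs of glia and myelin, 3 were tested and none was called. miR-338, a miRNA of myelinating glia and their precursors that also occurs in neurons, was at 8233 on the sham array and at 12802, 11077 and 11869 after denervation. All 3 arrays lay above sham, with a log2 difference of 0.53 ± 0.10 (SD, n = 3, interval 0.21 to 0.85, adjusted p = 0.150). It was the brightest miRNA on these arrays. Quantile normalization gives the brightest miRNA of each array the same value, so that its difference of 0 there was fixed in advance. With the other scalings the difference was 0.23 to 0.74. The entrapment arrays (10690 to 12692) and the decompression arrays (9980 to 11554), compared with the same sham array, lay above it too. miR-219-5p, which promotes oligodendrocyte maturation, was dim, with a difference of 0.64 (adjusted p = 0.242), and miR-338* differed by -0.10 (adjusted p = 0.943).

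**Figure D3:**
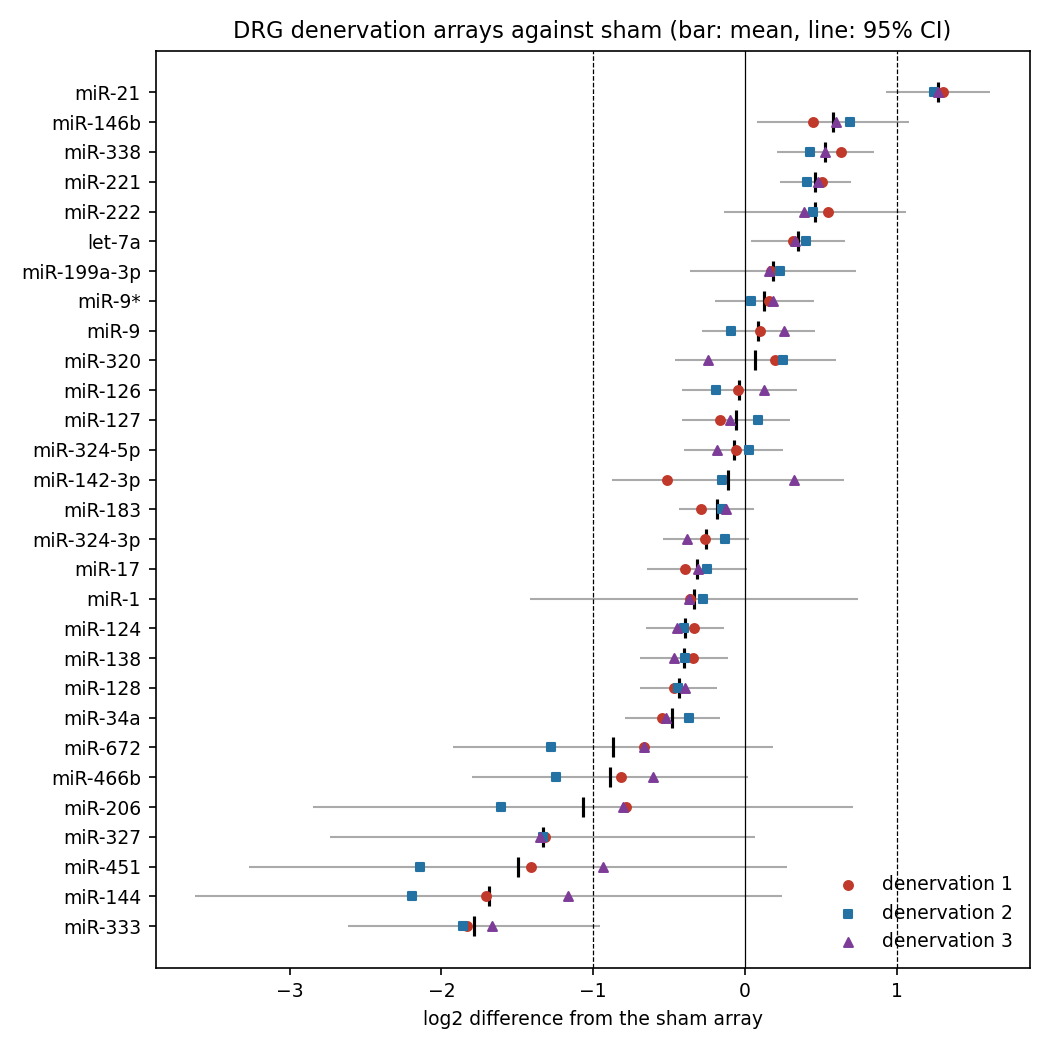
Log2 difference of each denervation array from the sham array for 29 miRNAs named in the text, ordered by their mean. Symbols are the 3 arrays, black bars their mean and grey lines the 95% interval from limma. The interval assumes that the 1 sham array varies like the other groups. The arrays of miR-21 fall between 1.25 and 1.31, and those of miR-144 between -2.20 and -1.16.

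The let-7 family, miRNAs that are abundant in differentiated cells, moved little but in 1 direction. All 8 members on the array, let-7a to let-7f, let-7i and miR-98, share the seed GAGGUAG, and each was higher than sham on all 3 arrays, beside 31.2% of all miRNAs tested. The differences ran from 0.17 to 0.35 on the log2 scale and none was called. let-7a was at 2605 on the sham array and at 3240, 3447 and 3275 after denervation, a difference of 0.35 ± 0.05 (SD, n = 3, adjusted p = 0.249). Probes for members of a family as similar as let-7 can bind each other's miRNA, so that the 8 values are not independent. Under each of the 6 other scalings tried all 8 members stayed above sham, with medians of 0.08 to 0.46.

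Among miRNAs of mesenchymal cells and matrix, 8 of 10 were tested, none was called, and the median was 0.16. It was 0.02 with quantile normalization. Of these 8, 5 were higher and 1 lower on all 3 arrays, beside 31.2% and 37.6% of all miRNAs tested, with the lowest member at -0.26. miR-29a, miR-29b and miR-29c, which share the seed AGCACCA and are known to act on collagen messenger RNAs, differed by 0.26, 0.14 and 0.33. miR-199a-3p, of fibroblasts, differed by 0.19 (adjusted p = 0.733). The 9 members tested of the miR-17-92 cluster and its paralogs, known for growth of dividing cells, had a median of -0.10, with miR-17 at -0.32 (adjusted p = 0.309). The 33 members tested of the imprinted Dlk1-Dio3 locus, of which many are expressed in neurons, had a median of -0.08. Of these 33, 6 were higher and 14 lower on all 3 arrays, beside 31.2% and 37.6% of all miRNAs tested. miR-127 of this locus differed by -0.06 (adjusted p = 0.875). With the processing used here, no member of these lists was called by limma or the fold rule. After quantile normalization limma called miR-409-5p of the Dlk1-Dio3 locus. The medians of the miR-17-92 and Dlk1-Dio3 lists turned sign under other scalings, with highest values of 0.11 and 0.14.

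The lists for other cell types that DRG tissue can hold gave no call outside red blood cells. Of the 5 miRNAs of leukocytes, 1 was higher on all arrays and none lower, beside 31.2% and 37.6% of all miRNAs tested. Their summed signal was 998 on the sham array and 779 to 1213 on the denervation arrays. miR-142-3p, found in all blood cell lineages, was at 595 on the sham array and at 418, 537 and 743 on the denervation arrays, on both sides of sham. miR-223, of myeloid cells, differed by 0.00 (interval -0.85 to 0.85). The 4 miRNAs of vessel walls had a median of -0.03, with miR-126, of endothelium, at -0.04 (interval -0.42 to 0.34) and a summed signal of 1575 on the sham array and of 1499 to 1668 on the denervation arrays. The medians of both lists turned sign under other scalings, with a highest value of 0.18 each.

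The 5 miRNAs of skeletal muscle were all detected on the sham and the denervation arrays, at a summed signal of 333 on the sham array and 254 to 285 on the denervation arrays. Of these, 4 were lower than sham on all 3 arrays and 1 was higher, beside 37.6% and 31.2% of all miRNAs tested. None was called. miR-1 differed by -0.33 (interval -1.42 to 0.75, adjusted p = 0.766). miR-206, a muscle-specific miRNA, was at 43.1 on the sham array and at 25.0, 14.1 and 24.7 on the denervation arrays. Its log2 difference was -1.06 ± 0.47 (SD, n = 3, adjusted p = 0.507). miR-499 differed by 0.69 (adjusted p = 0.351). The part of adhering muscle in these values was not tested.

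**Figure D4:**
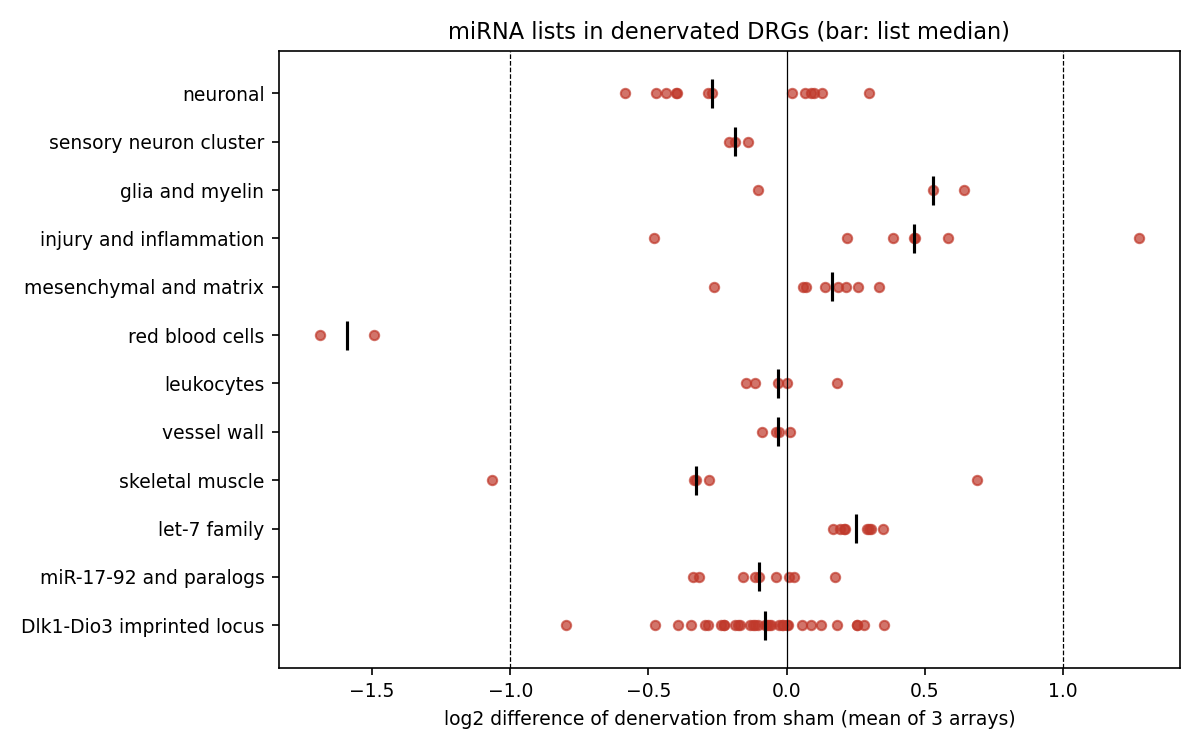
Mean log2 difference of denervation from sham (3 arrays against 1) for the tested members of 12 lists of miRNAs, 1 point per miRNA. Black bars are list medians and dashed lines mark 2-fold. miR-21 is the point at 1.27, and both red blood cell miRNAs lie below -1.

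Set against entrapment and decompression, which both leave the nerve continuous, denervation could be compared without the sham array. Of the 221 miRNAs, limma called 71 (32.1%) higher and 26 (11.8%) lower after denervation than on the other 6 arrays, with a median of 0.14. These counts depended on the scaling, with 31 higher and 134 lower after scaling to the median, 41 and 56 after quantile normalization, and 154 and 1 without scaling. As given above, the control features parted the same arrays, so that these differences cannot be told apart from handling. miR-21 was 2.29-fold higher than on the other 6 arrays (log2 difference 1.20, SE 0.09, adjusted p = 1.8e-05), and it was called higher under all 6 other scalings (0.56 to 1.64). By the size of its difference it ranked 26th among the 221.

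Several miRNAs that limma, with the processing used here, did not call against sham differed from the other injuries. miR-9 differed by 1.34 (adjusted p = 1.6e-05), with 159 to 194 after entrapment and 171 to 183 after decompression, while miR-9* differed by -0.02 (adjusted p = 0.864). miR-222, at 33.4 to 37.2 after denervation, was not detected on any entrapment array and was detected on 1 of 3 decompression arrays, so that no fold is given. miR-9 and miR-146b (1.05) were called higher under all 6 other scalings. miR-221 differed by 0.53 (adjusted p = 1.9e-04), and its sign turned under 1 of the 6, with a lowest value of -0.10. In the lower direction, miR-34a differed by -0.75, miR-124 by -0.51, miR-128 by -0.49 and miR-29a by -0.48, and each was called in 5 of the 6 other scalings with no change of sign.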

How the data were processed

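The authors deposited, for each of the 20 single-colour Agilent rat miRNA arrays, the total gene signal of 350 miRNAs, an intensity summed over probes after background subtraction by Agilent Feature Extraction 9.5.3 and not normalized between arrays, with an error and a detection call. The labels describe Cy3-CTP amplification and the Methods pCp-Cy3 ligation. A further deposited table by the authors gives a processed signal, equal to the scanner signal divided by a constant for each array. Its columns named for DRG entrapment match the scanner files named for decompression and the reverse, and which naming is right is not given in the sources used here.

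Here each of the 10 DRG arrays was scaled to its 75th percentile over all 350 miRNAs, floored at 2.07, and log2 was taken. Control features were left out. The model (limma 3.58.1, R 4.3.3) took all 10 arrays and no term but the group, with 6 residual and 2.07 prior degrees of freedom, for miRNAs detected on at least 3 arrays, and gave two-sided p-values adjusted by Benjamini-Hochberg over all 221 at 0.05. The fold rule took 2-fold from sham on each array. Intervals are 95% and unadjusted. The code was tested on simulated data. Plots used Python 3.11.15 and matplotlib 3.10.9.

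Named by rule were the DRG miRNAs of the study, up to 12 called miRNAs in each direction, the defining and the called members of each list, and the other hairpin arms. Other list members were named after their values were seen. All members and lists were chosen with earlier results of these data known. The alternatives are those given with the dependence on processing. The number of arrays limits the precision. The slides could not be told apart.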

Additional observations from a re-analysis of the deposited data

Results flagged for a closer look

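The change of miR-21 after denervation differed between DRGs and soleus muscle. In the DRGs the log2 difference from sham was 1.27. In soleus the 3 denervation arrays differed from the 1 soleus sham array by 3.48, 3.40 and 2.95, a mean of 3.28, with signals of 201 for sham and a mean of 1969 for denervation. The DRG difference minus the soleus difference was -2.00 (SE 0.46, limma interaction, adjusted p = 0.00576 over 162 miRNAs tested in both tissues). miR-21 was higher than sham on 3 of 3 arrays in each tissue. Each tissue rests on 1 sham array and was scaled on its own, by different rules. The DRG arrays were scaled to the 75th percentile of all 350 miRNAs. The soleus arrays were scaled to that of the miRNAs detected on every soleus array. With the latter kind of scaling the DRG difference was 1.25, and the interaction was not computed again.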

How the results depend on the processing

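miR-21 was called higher under all 22 alternatives (log2 difference 1.14 to 1.49, adjusted p 0.00135 to 0.0453), and leaving out 1 denervation array gave 1.26 to 1.29. Leaving out an entrapment or decompression array, or changing only the filter or the intensity trend, cannot alter the difference of 1.27. Those alternatives bear on the adjusted p alone. The count of miRNAs higher by limma, 1, became 13 with quantile normalization, 3 with rank-consistent loess and 5 without the filter on detection, and was 1 to 1 when an array was left out. The count lower by limma, 0, became 3 with quantile normalization, 1 with loess, 6 without the filter and 2 with only the arrays compared. It was 0 to 1 when an array was left out, the 1 being miR-333 without entrapment 1 (adjusted p = 0.0361). By the fold rule, the count higher became 2 with quantile normalization and was 1 to 1 when an array was left out. The count lower, 3, became 1 among miRNAs detected on all arrays, 13 at 1.5-fold and 8 for the 2-fold mean, and was 3 to 5 when an array was left out, the 5 being without denervation 3, where miR-451 and miR-30c-1* joined. miR-144 was not among the lower with median scaling, nor miR-333 with quantile normalization. With the processed values miR-333 could not be evaluated.

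Against entrapment and decompression, 71 higher became 154 without scaling, 31 with median scaling, 41 with quantile normalization, 41 among miRNAs detected on all arrays, and 51 to 70 when an array was left out. The 26 lower became 1, 134 and 56 under those scalings, 50 with loess, 16 with the processed values, and 13 to 30 when an array was left out (13 without denervation 1, 14 without denervation 3, 17 without entrapment 2).

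The median difference from sham over all miRNAs, -0.03, was 0.18 with median scaling, 0.07 without scaling and 0.09 with the processed values. Small differences, none called, therefore turned sign. Under median scaling miR-183 was 0.028, miR-142-3p 0.10, miR-126 0.18, miR-127 0.16 and miR-324-5p 0.14. Without scaling miR-126 was 0.065, miR-127 0.043 and miR-324-5p 0.029. With the processed values miR-142-3p was 0.0084, miR-126 0.085, miR-127 0.063 and miR-324-5p 0.049. With an array left out miR-320 was -0.024 (without denervation 2) to 0.23, miR-126 -0.12 to 0.039 (without denervation 2) and miR-142-3p -0.33 to 0.086 (without denervation 1). miR-333 and miR-338 were at 0 with quantile normalization, and neither value measures a change. The signals of miR-333 fell to the floor of that scaling, and miR-338, the brightest, gets the same value on each array. List medians kept their sign under all 6 other scalings for 7 of 12 lists, and the 5 that turned were the sensory neuron cluster, leukocytes, vessel wall, the miR-17-92 cluster and the Dlk1-Dio3 locus. The cause was not tested.

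The replicate numbers were not taken to pair the arrays. The deviations of same-numbered arrays correlated at -0.12 to 0.48. Arrays with different numbers were not compared in this way, so that these values cannot decide whether the arrays are paired. With the replicate number as a block limma called 1 higher and 0 lower, miR-144 was -0.98, miR-1 was -0.63 and miR-199a-3p turned to -0.0096. The single sham array was in every comparison with sham, and none of those could be had without it.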
